A study of Saccharomyces cerevisiae with 12 samples.

Results

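The genes described here make, modify and store fatty acids. They are 10 of the 6691 genes counted in the series, and they were chosen by name for their roles. *ACC1* (YNR016C), *FAS1* (YKL182W) and *FAS2* (YPL231W) act in fatty acid synthesis, *OLE1* (YGL055W) in desaturation, *ELO1* (YJL196C) in elongation and *FAA1* (YOR317W) in the activation of free fatty acids. *DGA1* (YOR245C) and *LRO1* (YNR008W) make triacylglycerol, the storage fat, and *TGL3* (YMR313C) and *TGL4* (YKR089C) break it down. The series compared RNA from *Saccharomyces cerevisiae* cells with wild-type *TRA1* or with the mutant *tra1Q3*, at day 0 and at day 3 of chronological aging, the survival of cells that no longer divide. Tra1 is a scaffold subunit shared by the SAGA and NuA4 histone acetyltransferase complexes, and *tra1Q3* carries glutamine in place of 3 arginines of its PI3K domain. All 4 groups are derivatives of the strain W303A of mating type a (MATa), with the alleles ade2-1 and can1-100 and the auxotrophic markers trp1-1 and leu2-3 as well as his3-11 and ura3-1. In both strains the *TRA1* allele was integrated with a FLAG tag under selection for HIS+, and the cells carried the plasmid YCplac111-DED1pr-YHR100, so that the *TRA1* cells are the tagged wild-type control and not the parent strain. The labels name growth to mid-log phase in synthetic complete medium and the MasterPure kit, whereas the study's methods name dilution of a saturated culture into minus-leucine medium and the RiboPure kit. Each group has 3 libraries, described by the study as biological replicates, and those of aged *tra1Q3* cells carry the numbers 2, 3 and 4.

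In yeast, Acc1 turns acetyl-CoA into malonyl-CoA, the rate-limiting step of fatty acid synthesis, and the Fas1 and Fas2 proteins together form the fatty acid synthase that builds the chain. Ole1, a membrane protein of the endoplasmic reticulum, introduces the double bond of unsaturated fatty acids, and Faa1 couples long-chain fatty acids to coenzyme A. When cells stop dividing, acyl chains are moved into triacylglycerol in lipid droplets, either from acyl-CoA by Dga1 or from phospholipids by Lro1, and the lipases Tgl3 and Tgl4 release them again.

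The libraries held 20662125 to 28079682 counts each, and raw counts of the 10 genes ran from 388 (*ELO1*) to 102376 (*FAS2*). Levels are given as normalised counts, that is, counts brought to a common library size after TMM scaling of the 12 libraries, and levels of different genes are compared only after division by coding length. A difference is a log2 value with its standard error from the quasi-likelihood test of edgeR, and p-values were adjusted by Benjamini-Hochberg over all genes tested. A gene passed the test at an adjusted p of 0.05 or less, and was called when its absolute log2 value was also over 1. The genotypes were compared within each day, as *tra1Q3* against *TRA1*, in the 6 libraries of that day. Differences between days, and the age-genotype interaction score, came from one fit of all 12 libraries. The score is the log2 difference between days in *TRA1* cells minus that in *tra1Q3* cells, so that a positive score means a larger rise or a smaller fall in *TRA1* cells. Because each day was scaled on its own, a log2 value within a day can differ from the ratio of the normalised counts. In RNA from a whole culture, a lower level in each cell and fewer cells with the transcript cannot be told apart. The scaling also makes each level relative to the other transcripts of its library. Rises and falls between days are therefore changes in relative level, and a change in total mRNA per cell would not show in them. All 10 genes had enough counts to be tested in every comparison, none shares coding bases with another gene, and each 100-base window of their coding sequences occurs once in the R64 genome.

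Some libraries stood apart from their labels or from the others. *TRA1* mRNA was 15792 to 16403 in *TRA1* and 22562 to 24389 in *tra1Q3* cells at day 0, and 13463 to 14455 against 43129 to 44886 at day 3, and the counts do not show the mutation itself. A summed level of 7 stationary phase genes was 40286 to 51076 at day 0 and 573844 to 803385 at day 3. In aged *tra1Q3* cells *HSP26* made up most of that sum (529310 to 608750, against 128430 to 266673 in aged *TRA1* cells). The other 6 genes were lower in every aged *tra1Q3* than in every aged *TRA1* library, as *SIP18* was with 1650 to 1935 against 71529 to 137858. *CTT1* was also lower in aged *tra1Q3* cells (4202 to 5151) than in *tra1Q3* cells at day 0 (18103 to 18601). The aged genotypes thus differed in these markers, whose part in the results was not tested. The labels give mating type a for every library. The summed level of 4 alpha-type genes was 1156 to 1203 in *TRA1* and 19629 to 21610 in *tra1Q3* cells at day 0, and 2691 to 3136 against 10985 to 13443 at day 3. *SAG1* made up most of it in *tra1Q3* cells, and *MF(ALPHA)2* went the other way at day 3, with 351 to 380 in *TRA1* and 194 to 275 in *tra1Q3* cells. The summed level of 5 a-type genes was also higher in *tra1Q3* cells, with 59853 to 62921 against 26990 to 28792 at day 0 and 28749 to 35665 against 6630 to 7560 at day 3. None of these 9 markers was at 0 in any library, their sums move with every genotype comparison below, and their part in the results was not tested. Replicates 2 and 3 of *tra1Q3* cells at day 0 held more of some transcripts that were abundant in aged cells than replicate 1 did. *SIP18* and *MLS1*, for example, were at 0.857% to 1.04% of their mean level in aged *TRA1* cells. Their levels in these replicates were 876 to 1018 and 1012 to 1138, against 1650 to 1935 and 2007 to 2090 in aged *tra1Q3* cells. Carried over at 1.04%, a share that assumes aged *TRA1* cells as the source, such transcripts would make up 0.171% (*FAS1*) to 3.89% (*DGA1*) of the day 0 level of the 10 genes. The proportion was not the same for all 7 stationary phase genes. Their excess over replicate 1 ran from -0.0305% (*CTT1*, replicate 3) to 2.17% (*HSP26*, replicate 2) of the mean level in aged *TRA1* cells. Replicates 2 and 3 are called the libraries with aged transcripts below, but where these transcripts came from was not tested. Fits without both keep only replicate 1 of that group. For them log2 values alone are given, apart from counts of passes over all alternatives. Replicate 2 of aged *TRA1* cells differed from the other aged *TRA1* libraries with median chi-square ratios of 87.3 and 91.3, where 1 stands for counting error alone. The ratio was 11.3 between those other libraries and 2.98 to 4.63 within the other groups.

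Short sequence words were searched, on both strands, in the window from 250 bases before to 50 bases after each start codon, because *ACC1*, *FAS1* and *FAS2* moved together between days. The words were CATGTG, the core of the site of the phospholipid regulators Ino2 and Ino4, TTACCCG, the core of the Reb1 site, and AGGGG, the stress response element of Msn2 and Msn4. They do not overlap each other. The windows of 6662 genes were read from the R64 genome sequence of RefSeq, whose coordinates for the 10 genes equal those of the count table. CATGTG was in 7.33% of all windows and, of the 10 genes, in that of *FAS2* alone. TTACCCG was in 6.68% of all windows and in that of *ELO1*. AGGGG was in 21.3% of all windows and in those of *FAA1* and *TGL4*. The 5 matches before the start codons are shown on the strand of the gene with 10 bases on each side, the word or its complement in capitals.
*FAS2*, 232 bases before the start, chrXVI:108410-108435 (+): cccgcgttttCACATGctacctcatt
*ELO1*, 160 bases before the start, chrX:68926-68952 (-): gggtcttggcTTACCCGcgtcggcttt
*FAA1*, 124 bases before the start, chrXV:909209-909233 (+): tttccttttaCCCCTcacttgtcgt
*TGL4*, 226 bases before the start, chrXI:608577-608601 (-): aaagatcttaAGGGGtttaaaaaaa
*TGL4*, 184 bases before the start, chrXI:608535-608559 (-): tgacatattaCCCCTcttatacgat
The windows of *ACC1* and *FAS1* held none of these words, so none of them was shared by the 3 synthesis genes in this window.

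Per kilobase of coding sequence, the desaturase *OLE1* had the highest level of the 10 genes in *TRA1* cells at day 0, with 22653 normalised counts per kilobase. *FAS2* (15151), *FAS1* (10600), *FAA1* (9218), *ACC1* (6951) and *ELO1* (2539) followed, each without overlap with the next in its libraries. *TGL4*, *TGL3*, *LRO1* and *DGA1* lay together at 1149 to 1245, and of these only *LRO1* and *DGA1* had neighbouring levels that did not overlap. In *tra1Q3* cells at day 0 the order was the same down to *ELO1*, but *FAS1* (12538) and *FAA1* (12475) overlapped. At day 3 the order was different. In aged *TRA1* cells *OLE1* was highest (29992, with libraries from 7959 to 49635), *FAA1* (5616) and *DGA1* (3573) were next and *LRO1* was lowest (644), and all neighbours from *DGA1* downwards overlapped. In aged *tra1Q3* cells *FAA1* was highest (16086), then *OLE1* (11831) and *FAS2* (3360), and *ELO1* was lowest (500.3). The 10 genes together took 1.06% to 1.17% of the counts at day 0 and 0.314% to 0.672% at day 3.

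**Figure D1:**
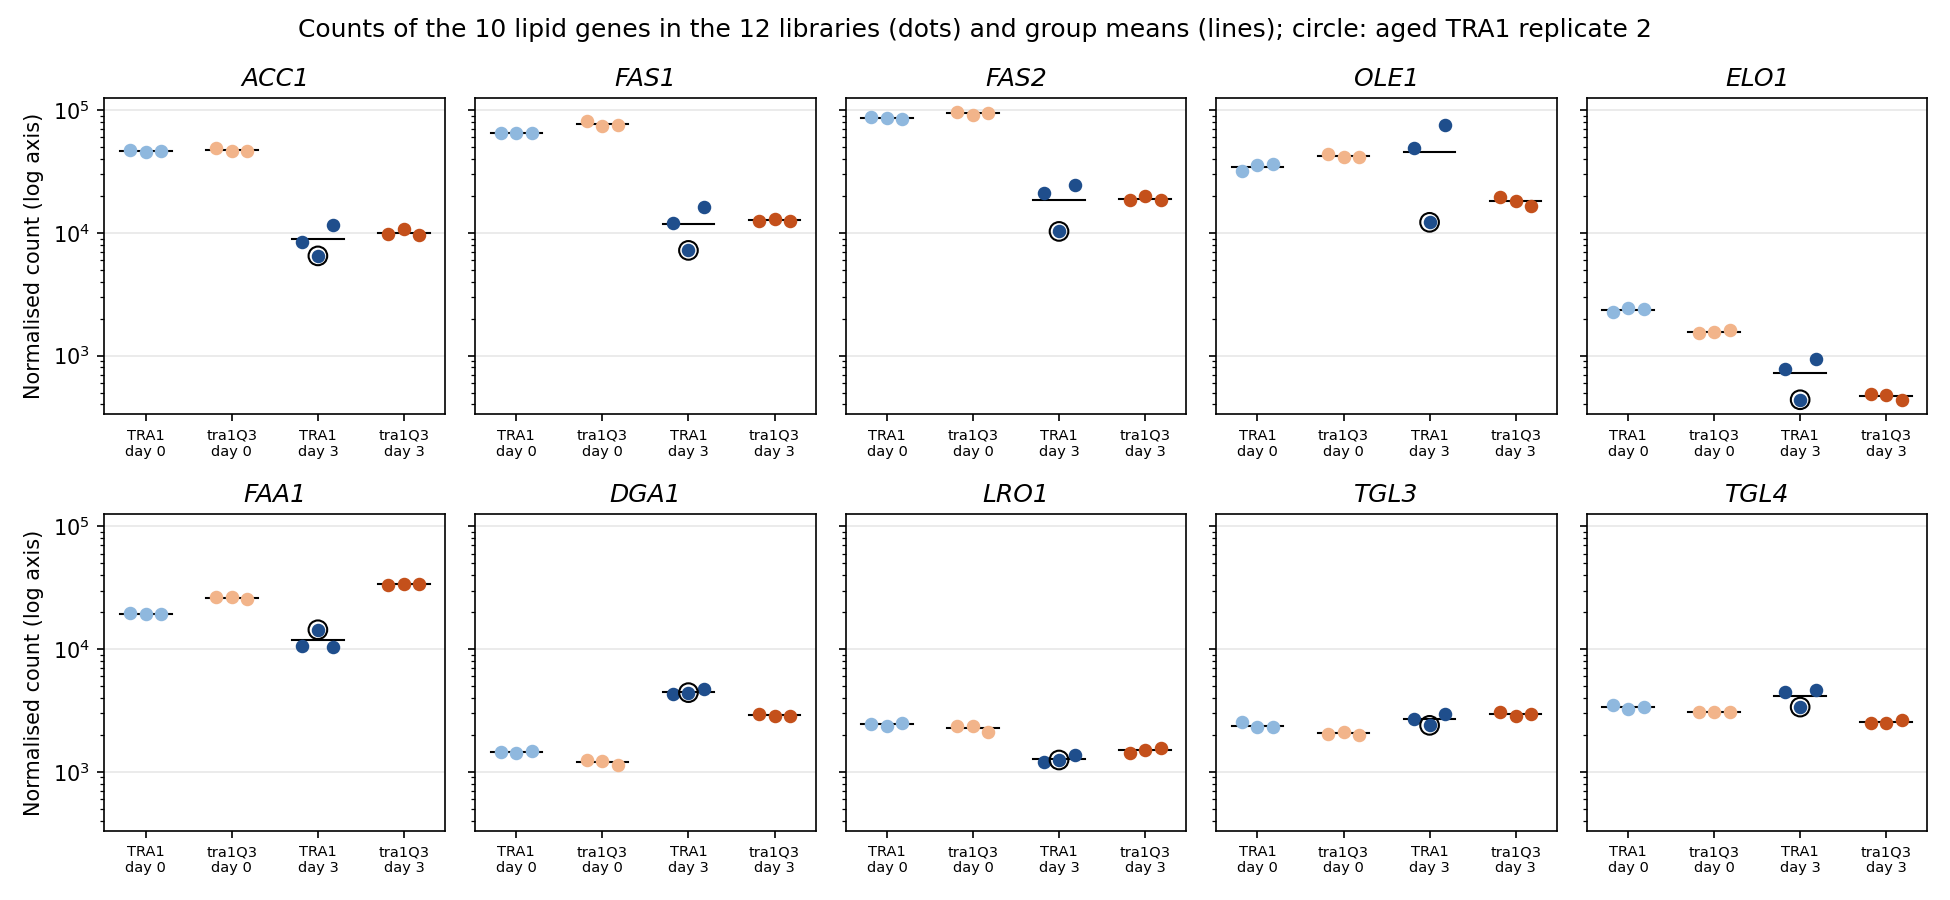
Normalised counts of the 10 genes in each library, on a shared log axis. Dots are libraries, lines are the means of 3 libraries, and the circle marks replicate 2 of aged *TRA1* cells, which had the lowest *OLE1* count of all 12 libraries (12201) and the highest *FAA1* count of its group (14398).

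The genes of fatty acid synthesis fell strongly between days in both genotypes. *ACC1* lies at chrXIV:654673-661374 on the minus strand, and had 47055, 46078 and 46615 normalised counts in *TRA1* cells and 48976, 46222 and 46112 in *tra1Q3* cells at day 0. In aged cells it had 8485, 6498 and 11631 in *TRA1* and 9747, 10761 and 9660 in *tra1Q3* cells. The genotypes thus overlapped on both days, while the days were far apart. *ACC1* fell by 2.39 ± 0.17 on the log2 scale in *TRA1* cells (adjusted p = 6.22e-08) and fell by 2.23 ± 0.17 in *tra1Q3* cells (adjusted p = 9.32e-08, edgeR).

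*FAS1*, for the beta subunit of the synthase (chrXI:100671-106826, plus strand), had 65130, 65575 and 65057 normalised counts in *TRA1* and 81296, 74762 and 75491 in *tra1Q3* cells at day 0. Every *tra1Q3* library was above every *TRA1* library, with a difference of 0.24 ± 0.05 (adjusted p = 0.00011). At day 3 the counts were 12084, 7204 and 16278 in *TRA1* and 12520, 13091 and 12459 in *tra1Q3* cells, and the genotypes overlapped. Between days, *FAS1* fell by 2.46 ± 0.22 in *TRA1* cells and fell by 2.61 ± 0.22 in *tra1Q3* cells (adjusted p = 6.08e-07 and 3.22e-07).

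*FAS2*, for the alpha subunit (chrXVI:108652-114315, plus strand), had 87558, 85792 and 84093 normalised counts in *TRA1* and 96066, 92033 and 95597 in *tra1Q3* cells at day 0, without overlap. Its difference of 0.14 ± 0.04 passed the test (adjusted p = 0.00737), but with scaling to library totals it was 0.06 and did not (adjusted p = 0.167). On day 3 it had 21098, 10286 and 24407 in *TRA1* and 18385, 20030 and 18684 in *tra1Q3* cells. *FAS2* fell by 2.21 ± 0.24 in *TRA1* cells and fell by 2.31 ± 0.24 in *tra1Q3* cells (adjusted p = 3.36e-06 and 1.98e-06).

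The genotype differences of these 3 genes at day 3 were small beside the spread of the aged *TRA1* libraries. They were 0.28 ± 0.21 for *ACC1* (adjusted p = 0.254), 0.19 ± 0.27 for *FAS1* (adjusted p = 0.534) and 0.13 ± 0.29 for *FAS2* (adjusted p = 0.707). Without replicate 2 of aged *TRA1* cells the last 2 turned to -0.07 and -0.17, and without replicate 3 that of *ACC1* was 0.52 and passed (adjusted p = 0.0185). The interaction scores were -0.16 ± 0.23 for *ACC1*, 0.14 ± 0.30 for *FAS1* and 0.11 ± 0.33 for *FAS2*, with adjusted p of 0.536, 0.684 and 0.781. Without replicate 2 the scores of *FAS1* and *FAS2* were both 0.39 and passed the test (adjusted p = 0.00761 and 0.000937). Without replicate 3 they were -0.15 and -0.14, and the score of *ACC1* was -0.41 with an adjusted p of 0.0284. Which sign the genotype difference of *FAS1* and *FAS2* takes at day 3 thus differed with the aged *TRA1* libraries used. It also turned with scaling to library totals (-0.07 and -0.13). That of *ACC1* was positive in each of the 14 alternatives run, but ranged from 0.0025 to 0.52.

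The desaturase gene *OLE1* (chrVII:398628-400160, plus strand) had the widest spread. At day 0 it had 31978, 35752 and 36449 normalised counts in *TRA1* and 43949, 41450 and 41591 in *tra1Q3* cells, and it was higher in *tra1Q3* cells by 0.29 ± 0.05 (adjusted p = 7.1e-05). At day 3 the *TRA1* libraries held 49642, 12201 and 76091, and the *tra1Q3* libraries 19687, 18106 and 16618. Replicates 1 and 3 of aged *TRA1* cells were thus above every library of the other groups and replicate 2 was below all of them. The coefficient of variation of aged *TRA1* cells was 69.8%, against 3.32% to 8.46% in the other groups. *OLE1* fell by 1.22 ± 0.44 in *tra1Q3* cells (adjusted p = 0.0219), where the days did not overlap. The fall passed in 16 of the 20 alternatives. It did not pass, for example, without replicate 2 or 3 of aged *tra1Q3* cells (adjusted p = 0.0561 and 0.0653). The fit shares an estimate of the spread over all 12 libraries, so that of aged *TRA1* cells enters this standard error. In *TRA1* cells the difference between days was 0.40 ± 0.44 (adjusted p = 0.402). It was 0.87 without replicate 2 (adjusted p = 5.05e-06) and -0.17 without replicate 3 (adjusted p = 0.712). The genotype difference at day 3 was -1.25 ± 0.56 (adjusted p = 0.0806), and -1.70 without replicate 2 (adjusted p = 1.28e-07). It did not pass without replicate 1, and without replicate 3 it was -0.67 and did not pass. It also passed with DESeq2 (adjusted p = 0.0212), with library totals (adjusted p = 0.0397) and with all 12 libraries in one fit (adjusted p = 0.0149). The interaction score of 1.63 ± 0.62 passed (adjusted p = 0.0342). Leaving out any single library other than replicate 2 of aged *TRA1* cells gave 1.06 to 1.69 with adjusted p of 0.054 to 0.0969, and leaving out that replicate gave 2.07 with an adjusted p of 8e-09. The score of *OLE1* was positive in each of the 20 alternatives run and passed in 7 of them.

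*ELO1* (chrX:67850-68782, minus strand), which elongates medium-chain fatty acids, had 2253, 2439 and 2414 normalised counts in *TRA1* and 1519, 1551 and 1626 in *tra1Q3* cells at day 0. It was lower in every *tra1Q3* library, by -0.60 ± 0.04 (adjusted p = 1.57e-09), the largest difference of the 10 genes at day 0. At day 3 it had 776, 437 and 940 in *TRA1* and 485, 479 and 436 in *tra1Q3* cells, so that replicate 2 of aged *TRA1* cells lay within the *tra1Q3* range. *ELO1* fell by 1.72 ± 0.20 in *TRA1* and fell by 1.75 ± 0.20 in *tra1Q3* cells (adjusted p = 5.37e-06 in both). The genotype difference at day 3 was -0.52 ± 0.26 (adjusted p = 0.108) and, without replicate 2 of aged *TRA1* cells, -0.78 (adjusted p = 9.25e-06). It also passed with library totals (-0.79, adjusted p = 0.016) and with all 12 libraries in one fit (-0.62, adjusted p = 0.0142). The score was 0.02 ± 0.28 (adjusted p = 0.947) and, without that replicate, 0.26 (adjusted p = 0.0284).

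*FAA1* (chrXV:909343-911445, plus strand), for the long-chain acyl-CoA synthetase, showed the clearest split of the genotypes. At day 0 it had 19671, 19308 and 19175 normalised counts in *TRA1* and 26574, 26564 and 25569 in *tra1Q3* cells. In aged cells it had 10612, 14398 and 10424 in *TRA1* and 33199, 34104 and 34183 in *tra1Q3* cells. *FAA1* was higher in *tra1Q3* cells in every library, by 0.44 ± 0.04 at day 0 (adjusted p = 2.95e-08) and by 1.62 ± 0.15 at day 3 (adjusted p = 7.1e-05), which is a 3.07-fold difference. It fell by 0.71 ± 0.11 between days in *TRA1* cells (adjusted p = 7.54e-05) and rose by 0.37 ± 0.11 in *tra1Q3* cells (adjusted p = 0.00861). The opposite directions gave a score of -1.08 ± 0.16 (adjusted p = 7.36e-05). The score and both genotype differences passed the test in every alternative run. The rise in *tra1Q3* cells passed in 19 of 20. It was 0.35 without both day 0 libraries with aged transcripts, a fit that keeps only replicate 1 of that group.

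**Figure D2:**
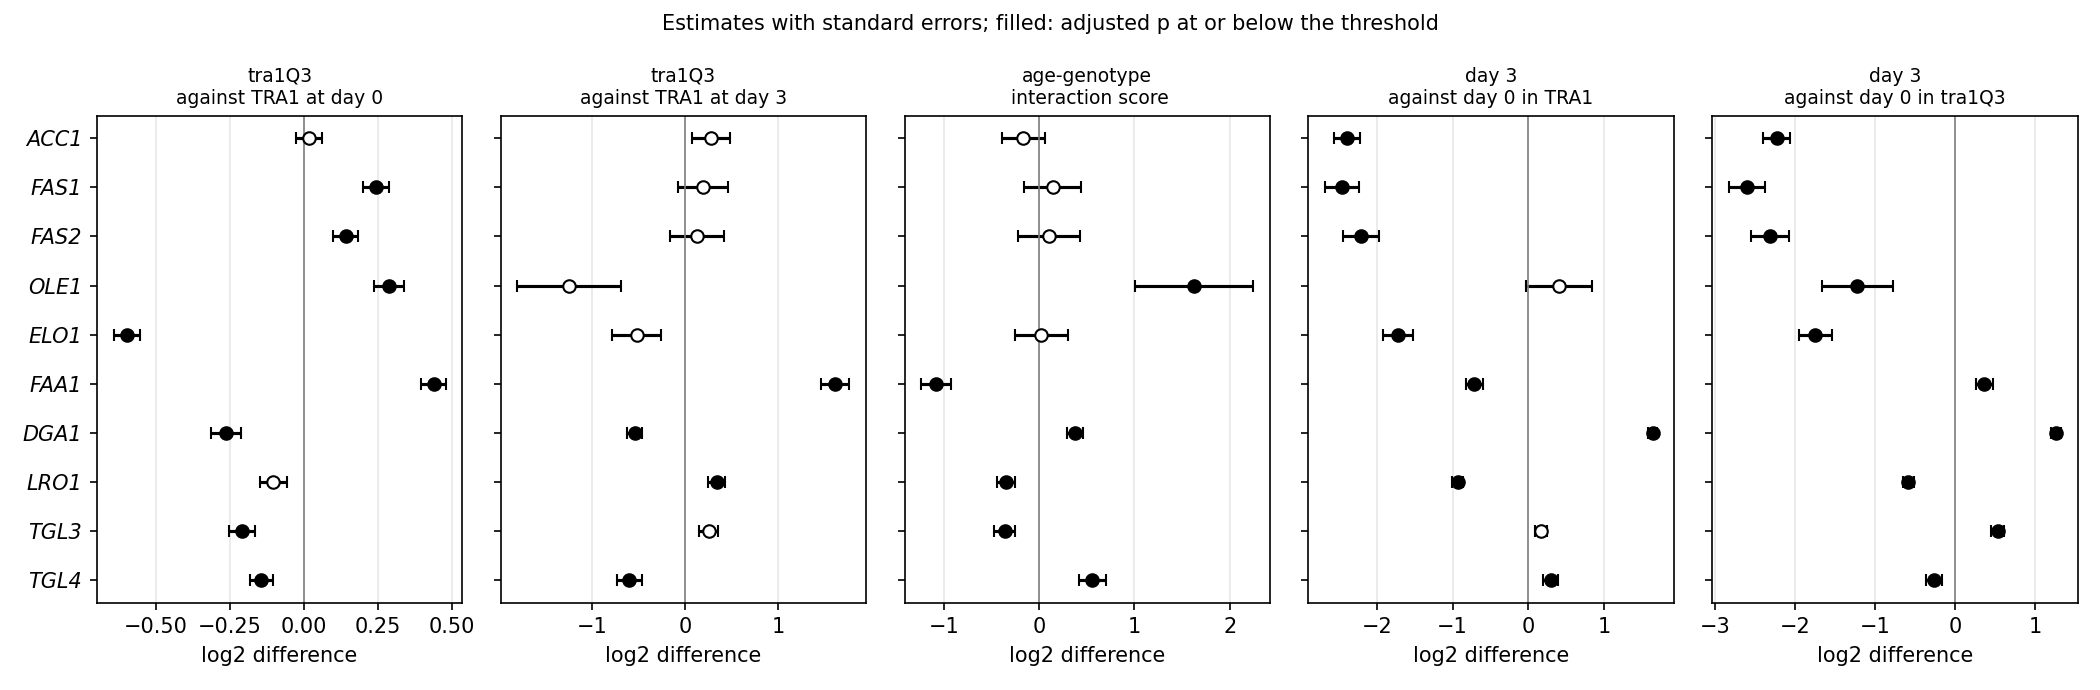
Log2 differences of the 10 genes in the 5 comparisons, with standard errors as bars and a separate horizontal scale in each panel. Filled points have an adjusted p of 0.05 or less. *FAA1* lies on opposite sides of 0 in the panels for aging in *TRA1* (-0.71) and *tra1Q3* (0.37), and *OLE1* has the longest bars at day 3 and in the score.

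The acyltransferase gene *DGA1* (chrXV:794076-795332, minus strand) was the only one of the 10 with a rise over 1 on the log2 scale between days. It had 1448, 1421 and 1465 normalised counts in *TRA1* and 1256, 1216 and 1133 in *tra1Q3* cells at day 0. On day 3 it had 4299, 4423 and 4753 in *TRA1* and 2960, 2858 and 2829 in *tra1Q3* cells, and on both days every *TRA1* library was above every *tra1Q3* library. The genotype difference was -0.26 ± 0.05 at day 0 (adjusted p = 0.000141) and -0.54 ± 0.08 at day 3 (adjusted p = 0.000717), or -0.83 at day 3 with scaling to library totals. *DGA1* rose by 1.64 ± 0.06 in *TRA1* cells (3.11-fold, adjusted p = 1.94e-10) and by 1.26 ± 0.06 in *tra1Q3* cells (2.4-fold, adjusted p = 1.33e-09), and the score was 0.37 ± 0.08 (adjusted p = 0.00175). *DGA1* is also the gene for which aged transcripts in day 0 libraries would weigh most. Its score ranged from 0.33 to 0.49 over the alternatives, which include the fit without both of those libraries.

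*LRO1* (chrXIV:640396-642381, plus strand), for the acyltransferase that uses phospholipids, moved the other way. It had 2456, 2384 and 2481 normalised counts in *TRA1* and 2357, 2353 and 2100 in *tra1Q3* cells at day 0, a difference of -0.10 ± 0.05 that did not pass (adjusted p = 0.0561). That difference passed without replicate 2 of *TRA1* cells (-0.12, adjusted p = 0.0493) and without replicate 1 or 2 of *tra1Q3* cells at day 0 (-0.13 in both, adjusted p = 0.0255 and 0.0411). It also passed with library totals (-0.19, adjusted p = 0.0023), with the size factors of DESeq2 (-0.11, adjusted p = 0.0429) and with read pairs alone (-0.12, adjusted p = 0.0306). At day 3 *LRO1* had 1214, 1249 and 1372 in *TRA1* and 1437, 1518 and 1577 in *tra1Q3* cells. It fell by 0.93 ± 0.07 in *TRA1* cells (adjusted p = 9.24e-08) and fell by 0.59 ± 0.07 in *tra1Q3* cells (adjusted p = 5.54e-06). Its score of -0.35 ± 0.10 (adjusted p = 0.00741) did not pass with library totals (-0.24, adjusted p = 0.0861). Without both day 0 libraries that held aged transcripts the score was -0.29. The genotype difference at day 3 was 0.34 ± 0.09 (adjusted p = 0.0107). It was 0.05 with scaling to library totals (adjusted p = 0.696), a scaling that shifted the median of all genes by -0.29 at day 3, and 0.31 without replicate 3 of aged *tra1Q3* cells (adjusted p = 0.0507).

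The ratio of *DGA1* to *LRO1* within a library does not depend on the scaling of libraries. Per kilobase it was 0.931, 0.941 and 0.933 in *TRA1* and 0.842, 0.816 and 0.852 in *tra1Q3* cells at day 0. At day 3 it was 5.59, 5.59 and 5.47 in *TRA1* and 2.97, 2.83 and 3.25 in *tra1Q3* cells (replicates 2, 3 and 4). The acyl-CoA-dependent enzyme's gene thus went from slightly below to well above that of the phospholipid-dependent one in both genotypes, and further in *TRA1* cells. The log2 ratio differed by -0.88 between the genotypes at day 3 and by 2.57 and 1.85 between days in *TRA1* and *tra1Q3* cells. In each of these the 3 values of a group were apart from the 3 of the other, which gives p = 0.10 in a two-sided exact permutation test, the smallest p that 3 against 3 allows, and 0.133 after Benjamini-Hochberg adjustment over the 12 ratio tests.

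Between days, the lipase genes moved less than *DGA1* and *LRO1* in both genotypes. *TGL3* (chrXIII:899379-901307, minus strand) had 2529, 2311 and 2300 normalised counts in *TRA1* and 2052, 2130 and 1994 in *tra1Q3* cells at day 0, a difference of -0.21 ± 0.05 (adjusted p = 0.000518). At day 3 it had 2684, 2394 and 2939 in *TRA1* and 3076, 2863 and 2981 in *tra1Q3* cells, which overlapped. The difference at day 3 was 0.25 ± 0.10 (adjusted p = 0.0538). It passed without replicate 2 (0.17, adjusted p = 0.0303) or replicate 3 (0.33, adjusted p = 0.0234) of aged *TRA1* cells and was -0.03 with scaling to library totals. It also passed with DESeq2 (0.25, adjusted p = 0.0451) and with read pairs alone (0.26, adjusted p = 0.0418). *TGL3* rose by 0.53 ± 0.08 between days in *tra1Q3* cells (adjusted p = 3.58e-05). In *TRA1* cells its difference was 0.17 ± 0.08 (adjusted p = 0.0592), and it passed without replicate 1 of *TRA1* cells at day 0 (0.21, adjusted p = 0.0402) or replicate 2 of aged *TRA1* cells (0.25, adjusted p = 0.000706). That difference also passed with library totals (0.34, adjusted p = 0.000572) and with upper quartile normalization (0.26, adjusted p = 0.00718). The score was -0.36 ± 0.11 (adjusted p = 0.01), and it was -0.37 without both day 0 libraries that held aged transcripts.

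*TGL4* (chrXI:605633-608365, minus strand), for a lipase of the same lipid droplets, had 3527, 3282 and 3397 normalised counts in *TRA1* and 3066, 3091 and 3078 in *tra1Q3* cells at day 0. In aged cells it had 4441, 3372 and 4690 in *TRA1* and 2518, 2509 and 2660 in *tra1Q3* cells. Every *tra1Q3* library was below every *TRA1* library on both days, by -0.14 ± 0.04 at day 0 (adjusted p = 0.00288) and by -0.60 ± 0.14 at day 3 (adjusted p = 0.0052). Between days *TGL4* rose by 0.29 ± 0.10 in *TRA1* cells (adjusted p = 0.0166), which did not pass without replicate 1 or 3 of aged *TRA1* cells (0.25 and 0.20, adjusted p = 0.0597 and 0.0712). It fell by 0.26 ± 0.10 in *tra1Q3* cells (adjusted p = 0.0272), which passed in 10 of the 20 alternatives. Leaving out replicate 2 or 4 of aged *tra1Q3* cells, or any of the *tra1Q3* libraries of day 0, gave adjusted p of 0.0562 to 0.0769. The score was 0.56 ± 0.14 (adjusted p = 0.00398) and passed in all 20.

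Per kilobase, *TGL4* stood at 0.984, 1.00 and 1.04 of *TGL3* in *TRA1* cells at day 0, at 1.05, 1.02 and 1.09 in *tra1Q3* cells at day 0 and at 1.17, 0.994 and 1.13 in aged *TRA1* cells. In aged *tra1Q3* cells it stood at 0.619, 0.63 and 0.578, below all 9 other libraries. The log2 ratio differed by -0.85 between the genotypes at day 3, with p = 0.10 in the two-sided exact permutation test, again the smallest p that 3 against 3 allows. The ratio of *FAS2* to *FAS1* differed by less between the genotypes at day 3 (log2 difference -0.05). Between days its log2 value rose by 0.24 in *TRA1* and by 0.29 in *tra1Q3* cells, without overlap. At day 0 the ratio was 1.40 to 1.46 in *TRA1* and 1.28 to 1.38 in *tra1Q3* cells. At day 3 the ratio was 1.55 to 1.9 and 1.6 to 1.66, and the genotypes overlapped.

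**Figure D3:**
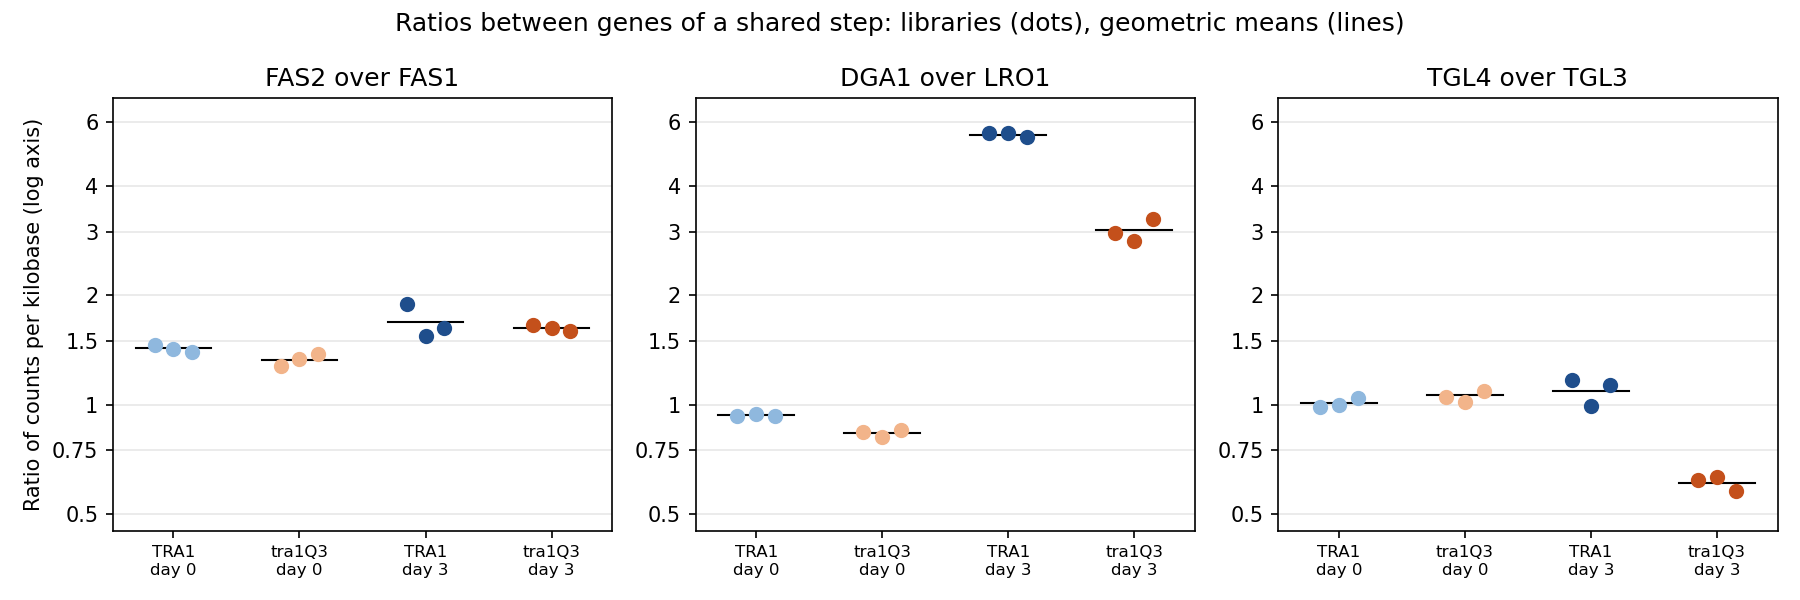
Ratios of normalised counts per kilobase between genes of a shared step, on a shared log axis. Dots are libraries and lines are geometric means of 3 libraries. *DGA1* over *LRO1* was 5.47 to 5.59 in aged *TRA1* and 2.83 to 3.25 in aged *tra1Q3* cells, and *TGL4* over *TGL3* was 0.578 to 0.63 in aged *tra1Q3* cells.

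Counted by comparison, 8 of the 10 genes passed the test between the genotypes at day 0, against 68.7% of the 6126 genes tested. Of these, 4 were higher in *tra1Q3* cells (*FAS1*, *FAS2*, *OLE1* and *FAA1*) and 4 were lower (*ELO1*, *DGA1*, *TGL3* and *TGL4*), against 35.0% and 33.7% of all genes. With edgeR, none of the 10 was called, against 6.07% of all genes (3.31% higher and 2.76% lower), although 9 had an unadjusted p under 0.05, and none was called with DESeq2. Fitted with all 12 libraries, *FAS1*, *FAS2*, *OLE1* and *TGL4* did not pass at day 0 (adjusted p = 0.386, 0.652, 0.624 and 0.269). Their differences stayed at 0.24, 0.14, 0.29 and -0.14. Their standard errors were larger, at 0.211, 0.231, 0.435 and 0.0995, in a fit whose estimate of the spread also includes the aged libraries. The genotypes did not overlap in 9 genes, all but *ACC1*, against 71.5% of all genes. The median log2 difference of the 10 was -0.04 and that of all genes 0.01.

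At day 3, 4 genes passed (*FAA1* and *LRO1* higher, *DGA1* and *TGL4* lower in *tra1Q3* cells), against 71.5% of the 6208 genes tested (35.1% higher and 36.4% lower). Only *FAA1* was called, against 32.0% of all genes (16.4% higher and 15.6% lower), and the same 4 genes had genotypes that did not overlap, against 77.2% of all genes. Without replicate 2 of aged *TRA1* cells 7 genes passed and 2 were called. The median of the 10 was 0.16 and that of all genes -0.02.

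For the interaction score, 6 genes passed, against 68.7% of the 6247 genes tested (39.0% positive and 29.7% negative). *OLE1*, *DGA1* and *TGL4* had positive scores, with a larger rise or smaller fall in *TRA1* cells, and *FAA1*, *LRO1* and *TGL3* had negative scores. *OLE1* and *FAA1* were called, against 31.5% of all genes (17.9% positive and 13.6% negative). Neither was called without replicate 3 of aged *TRA1* cells, both were called without replicate 2 of that group, and 1 was called on leaving out any other library. The median score of the 10 was 0.06 and that of all genes 0.15. The score and the comparisons within days use the same libraries.

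Between days in *TRA1* cells, 8 genes passed, against 81.3% of the 6247 genes tested (41.5% rose and 39.8% fell). Of the 8, 6 fell (*ACC1*, *FAS1*, *FAS2*, *ELO1*, *FAA1* and *LRO1*) and 2 rose (*DGA1* and *TGL4*). *ACC1*, *FAS1*, *FAS2*, *ELO1* and *DGA1* were called, against 39.9% of all genes (20.1% rose and 19.8% fell), and 7 genes had days that did not overlap, against 80.6%. In *tra1Q3* cells all 10 genes passed, against 83.0% of all genes (40.9% rose and 42.1% fell). Of the 10, 7 fell and 3 rose (*FAA1*, *DGA1* and *TGL3*). The called genes were the same 5 and *OLE1*, against 46.1% of all genes (22.7% rose and 23.4% fell). The days did not overlap in any of the 10 genes, against 89.7% of all genes. The medians of the 10 were -0.82 in *TRA1* and -0.91 in *tra1Q3* cells, and those of all genes 0.03 and -0.01.

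The 10 genes did not share the deviation of replicate 2 of aged *TRA1* cells equally. Against the mean of replicates 1 and 3, its log2 level was lower by -2.33 for *OLE1*, -1.14 for *FAS2*, -0.97 for *ELO1*, -0.96 for *FAS1* and -0.61 for *ACC1*. The triacylglycerol synthesis genes *DGA1* and *LRO1* were at -0.03 and -0.05, the lipase genes *TGL3* and *TGL4* at -0.23 and -0.44, and *FAA1* was higher by 0.45. Over the 6247 genes tested the median absolute deviation of this library was 0.301, and 6.23% of genes deviated by over 1. Between replicates 1 and 3 the values of the 10 genes ran from -0.62 (*OLE1*) to 0.03 (*FAA1*), and the median absolute value of all genes was 0.123. Among the 10 genes, *OLE1* and *FAS2* thus deviated most in this library, and *DGA1* and *LRO1* least.

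Among 43 other genes of fatty acid and storage lipid metabolism, drawn up by role, 32 passed the test at day 0, against 68.7% of all genes. Of these, 11 were higher and 21 lower in *tra1Q3* cells, against 35.0% and 33.7% of all genes, and the median of the 43 was -0.09. Only *ACB1*, for the acyl-CoA binding protein, was called, against 6.07% of all genes. It had 6933, 8564 and 7385 normalised counts in *TRA1* and 3410, 3425 and 3387 in *tra1Q3* cells, a difference of -1.16 ± 0.06 (adjusted p = 5.71e-12). At day 3, 35 passed (18 higher, 17 lower, median 0.08), against 71.5% of all genes, and 5 were called, against 32.0%. *CEM1*, for a condensing enzyme of mitochondrial fatty acid synthesis (1.28 ± 0.09, adjusted p = 2.27e-05), the lipase gene *TGL5* (1.19 ± 0.10, adjusted p = 3.75e-05) and the diacylglycerol kinase gene *DGK1* (1.15 ± 0.09, adjusted p = 3.03e-05) were higher in *tra1Q3* cells. *ETR1*, for a reductase of mitochondrial fatty acid synthesis (-1.11 ± 0.27, adjusted p = 0.00801), and *TSC13*, for a reductase of chain elongation (-1.09 ± 0.11, adjusted p = 9.29e-05), were lower. Without replicate 2 of aged *TRA1* cells 9 of the 43 were called. With scaling to library totals 8 were called, 0 higher and 8 lower in *tra1Q3* cells.

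In the interaction score 31 of the 43 passed (15 positive, 16 negative, median 0.00), against 68.7% of all genes. Of the 43, 9 were called, against 31.5% of all genes. The lipid droplet gene *PLN1* had 10850 to 11232 normalised counts in *TRA1* and 18224 to 18584 in *tra1Q3* cells at day 0. On day 3 it had 36648 to 59010 in *TRA1* and 28793 to 31533 in *tra1Q3* cells, a reversal of the genotype order with a score of 1.49 ± 0.21 (adjusted p = 5.95e-05). *ETR1* (1.12 ± 0.30, adjusted p = 0.00534) and the acyl-CoA synthetase gene *FAA4* (1.11 ± 0.32, adjusted p = 0.00903) also had positive scores. *FAA4*, close in function to *FAA1*, thus had a score of the opposite sign, with 3134 to 7730 normalised counts in aged *TRA1* and 2786 to 2808 in aged *tra1Q3* cells. *CEM1* (-1.99 ± 0.09, adjusted p = 8.99e-09), *HTD2*, for a dehydratase of mitochondrial fatty acid synthesis (-1.82 ± 0.12, adjusted p = 1.19e-07), and *TGL5* (-1.51 ± 0.11, adjusted p = 2.1e-07) had the lowest scores of those called. *CEM1* had 1006 to 1067 normalised counts in *TRA1* and 575 to 605 in *tra1Q3* cells at day 0, and 2621 to 3016 against 6099 to 6541 at day 3.

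Between days, 39 of the 43 passed in *TRA1* cells (16 rose and 23 fell, median -0.43), against 81.3% of all genes. There 16 were called, against 39.9% of all genes. In *tra1Q3* cells 34 passed (15 rose and 19 fell, median -0.06), against 83.0% of all genes, and 19 were called, against 46.1%. The elongase genes *ELO2* and *ELO3* and the elongation gene *PHS1* were among those that fell. *ELO2* fell by 3.38 ± 0.08 in *TRA1* and fell by 3.22 ± 0.08 in *tra1Q3* cells (adjusted p = 1.19e-11 and 6.99e-12), and *ELO3* fell by 3.33 ± 0.17 and fell by 3.49 ± 0.17 (adjusted p = 3.44e-09 and 2.02e-09). *PHS1* fell by 2.37 ± 0.17 in *TRA1* cells (adjusted p = 7.44e-08). *FAA4* fell by 2.53 ± 0.24 in *tra1Q3* cells (adjusted p = 8.03e-07). The medium-chain acyl-CoA synthetase gene *FAA2* (2.39 ± 0.07, adjusted p = 4.95e-11), *PLN1* (2.22 ± 0.16, adjusted p = 5.43e-08) and *ETR1* (2.02 ± 0.22, adjusted p = 2.85e-06) led the genes that rose in *TRA1* cells. In *tra1Q3* cells these were *CEM1* (3.43 ± 0.07, adjusted p = 3.85e-12), the lipid droplet gene *YFT2* (1.91 ± 0.08, adjusted p = 6.71e-10) and *YJU3*, for the monoacylglycerol lipase (1.81 ± 0.08, adjusted p = 6.64e-10). Each of these genes also rose and passed in the other genotype. *FAA2*, *PLN1* and *ETR1* rose by 1.535, 0.73 and 0.90 in *tra1Q3* cells, and *CEM1*, *YFT2* and *YJU3* by 1.44, 1.13 and 0.87 in *TRA1* cells. *FAA2* shares 23 coding bases with another gene, and reads there can be lost to its count.

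**Figure D4:**
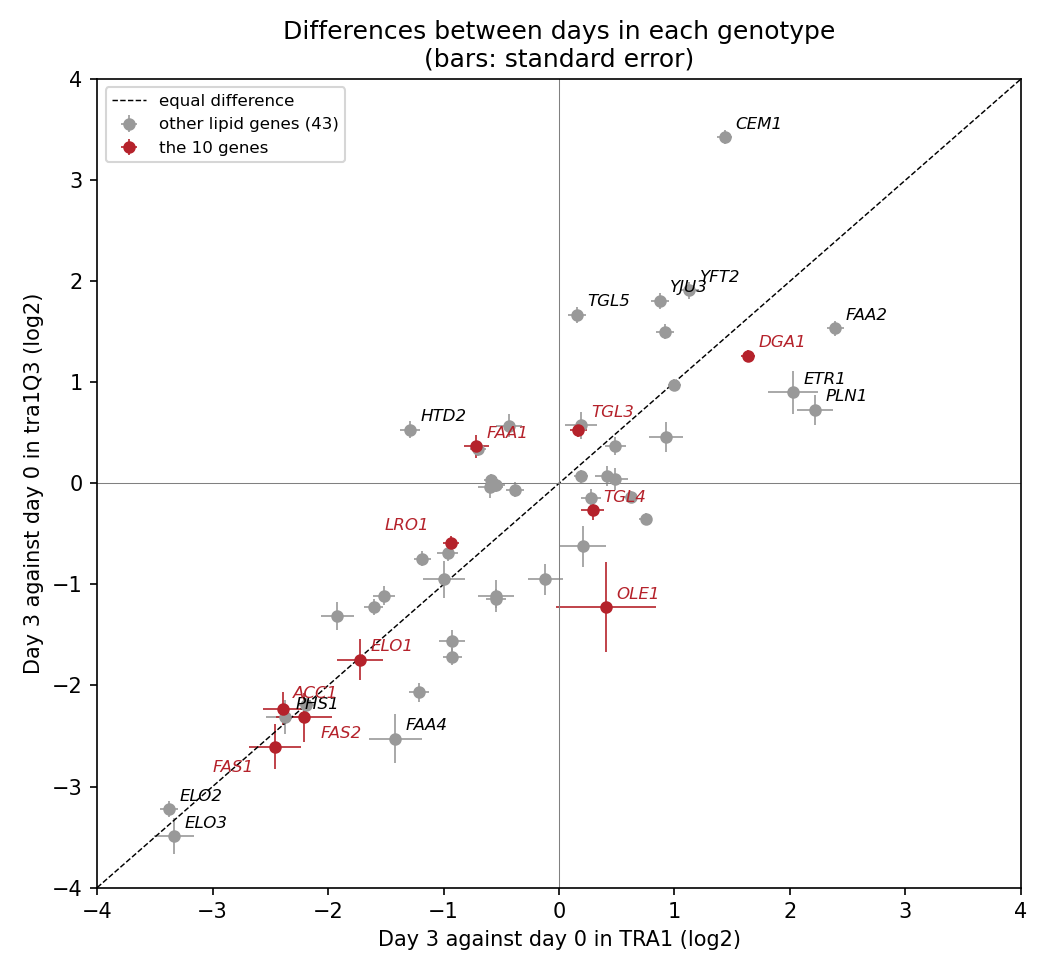
Log2 difference between days in *TRA1* cells (horizontal) and in *tra1Q3* cells (vertical) for the 10 genes (red) and 43 other lipid genes (grey), with standard errors and a dashed line of equal difference. *ACC1*, *FAS1*, *FAS2* and *ELO1* lie near the line at the lower left, *DGA1* (1.64 and 1.26) lies at the upper right, and *FAA1* and *OLE1* lie on opposite sides of the line.

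Profiles over the 12 libraries were compared as log2 CPM, centred for each gene, with the root mean square of the difference as the measure of likeness among 6237 other genes. *ACC1* was nearest to *YBR096W* (0.149), as was *FAS2* (0.208), *FAS1* to *MRI1* (0.169) and *ELO1* to *ERG20* (0.156). *FAA1* was nearest to *MSE1* (0.0936), *DGA1* to *VPS62* (0.0927), *LRO1* to *SPT16* (0.0732), *TGL3* to *MPS1* (0.0769) and *TGL4* to *NAM8* (0.0663). The nearest gene to *OLE1*, *SIA1*, was farther away (0.307). Among the 10 genes themselves, *ACC1* and *FAS2* were 0.148 apart and *FAS1* was 0.154 from *FAS2*, each no farther than the nearest gene outside the 10. *OLE1*, *FAA1* and *DGA1* had no other of the 10 within 0.586, 0.588 and 0.622. These values describe 12 libraries in 4 groups and carry no test.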

How the data were processed

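RNA selected with poly dT from 3 biological replicates in each of 4 groups was read from both ends. The authors deposited raw counts per coding sequence, made after trimming with Trimmomatic, alignment by STAR 2.5.4b (S288C, R64-2-1) and counting by featureCounts 1.6.0, with versions per the labels. No strand option appears in its command, although the labels call the libraries stranded. Counts of read pairs and of single reads (12.5% to 18.1% of each library) were added. One entry without a gene name (0.0851% of counts) was left out. The table holds no comparisons by the authors.

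Tested genes had 10 or more counts in 3 or more of the libraries fitted, and the test was that of edgeR 4.0.16 (TMM, glmQLFit and glmQLFTest) in R 4.3.3, with Benjamini-Hochberg adjustment. The scripts were tested on simulated data. Ratio tests used numpy 2.4.6, the chi-square ratios scipy 1.17.1, tables pandas 2.3.3 and figures matplotlib 3.10.9, under Python 3.11. Other settings tried were scaling by library totals, by upper quartiles or by the size factors of DESeq2, the test of DESeq2 1.42.0, read pairs alone, no filter, a replicate block, all 12 libraries in one fit, larger thresholds (absolute log2 over 2, score over 2.5), both day 0 *tra1Q3* libraries with aged transcripts left out, and each library left out in turn.

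All 10 genes were described in every comparison. Of the 43 other lipid genes, the 3 highest and 3 lowest called in each comparison with a mean of at least 100 normalised counts in the higher group were named. The genes and lists were chosen with earlier results of these data known. The reference annotation matched 6008 genes by locus tag. Protein sequences were not used here.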

Additional observations from a re-analysis of the deposited data

Results flagged for a closer look

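In these genes the difference between days differed between the genotypes by the test of the interaction score itself, with edgeR's quasi-likelihood test over all 12 libraries. Among the 10 genes the scores were 1.63 for *OLE1*, -1.08 for *FAA1*, 0.37 for *DGA1*, -0.35 for *LRO1*, -0.36 for *TGL3* and 0.56 for *TGL4*. The scores of *FAA1*, *DGA1* and *TGL4* passed in all 20 alternatives, whereas that of *OLE1* did not pass in 13 of 20 (highest adjusted p = 0.103). That of *LRO1* did not pass with library totals (adjusted p = 0.0861). Without both day 0 libraries with aged transcripts, which keeps only replicate 1 of that group, the scores of *LRO1* and *TGL3* were -0.29 and -0.37. The score of *OLE1* goes with its spread in aged *TRA1* cells, where the libraries held 49642, 12201 and 76091 normalised counts. Among the other lipid genes named, the scores were 1.49 for *PLN1*, 1.12 for *ETR1*, 1.11 for *FAA4*, -1.99 for *CEM1*, -1.82 for *HTD2* and -1.51 for *TGL5*. The summed alpha-type and a-type genes also differed between the genotypes on both days, and their part in these scores was not tested.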

How the results depend on the processing

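Over the 10 genes and 5 comparisons, 789 alternative values kept their direction and their side of the threshold, 43 lost and 27 gained significance, and 21 turned sign. Where no cause is named, the cause was not tested. The 15 other lipid genes named kept their direction and significance in every alternative run.

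With library totals, *ACC1* at day 0 was -0.067, and *FAS1*, *FAS2* and *TGL3* at day 3 were -0.071, -0.13 and -0.034. The score of *ELO1*, near 0 throughout, was -0.012 with DESeq2 and with its size factors, -0.0058 with upper quartile normalization and -0.022 without both libraries that held aged transcripts. With each library left out in turn, values that turned sign ranged from -0.010 to 0.034 for *ACC1* at day 0, from -0.069 to 0.49 for *FAS1* and from -0.17 to 0.38 for *FAS2* at day 3, and from -0.17 to 0.87 for *OLE1* between days in *TRA1* cells. The scores ranged from -0.41 to 0.0044 for *ACC1*, from -0.15 to 0.39 for *FAS1*, from -0.14 to 0.39 for *FAS2* and from -0.22 to 0.26 for *ELO1*, and the *FAS2* to *FAS1* log2 ratio at day 3 from -0.11 to 0.035. All but those of *ACC1* at day 0 had an end of their range without replicate 2 or 3 of aged *TRA1* cells, or, for the ratio, replicate 1.

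Counts that moved by over 1.5 times were as follows. Of the 10 genes, 4 in place of 8 passed at day 0 with all 12 libraries in one fit, as did 2669 in place of 4209 of all genes. At day 3, 2 in place of 1 were called with DESeq2, with library totals and with all 12 libraries, and for the score 1 in place of 2 with library totals. The fit without both libraries with aged transcripts keeps only replicate 1 of that group, and its counts are not given. Over log2 2, none was called at day 0 or day 3 and 3 in each genotype between days, and over 2.5 none for the score. Of the 43 other genes, 2 in place of 1 were called at day 0 with library totals. At day 3, 8 in place of 5 were called with library totals (0 higher and 8 lower in *tra1Q3* cells). *CEM1*, *TGL5* and *DGK1* were thus not called with that scaling. With all 12 libraries in one fit 8 were called as well (3 higher and 5 lower). Over the larger thresholds these counts were 0 at day 0, at day 3 and for the score, and 7 in each genotype between days, and all genes called were 62, 501, 273, 956 and 1113 in the order day 0, day 3, score, *TRA1* and *tra1Q3*. With each library left out in turn, 3 to 7 of the 10 passed and 1 to 2 were called at day 3, 0 to 2 were called for the score, and of the 43 genes 1 to 2 were called at day 0 and 4 to 9 at day 3.

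Library totals moved the median of all genes by -0.29 at day 3, by 0.12 in the score and by 0.18 between days in *TRA1* cells, and upper quartile normalization moved it by 0.12 between days in *tra1Q3* cells. With the replicate number as a block, 2 of the 10 genes passed at day 3 and 1 was called for the score, the score of *FAS2* was -0.012, and that of *OLE1* no longer passed (1.51, adjusted p = 0.103). Nor did *LRO1* and *TGL4* at day 3 (adjusted p = 0.223 and 0.0545) or *OLE1* and *TGL4* between days in *tra1Q3* cells (adjusted p = 0.0662 and 0.093), and the block ended no other pass among the 10 genes. The correlations of deviations between same-numbered libraries ran from -0.11 to 0.004, so the data gave no sign of pairing by number. The study's methods describe aliquots taken at both days, and the labels do not say whether libraries with the same number came from the same culture. If they did, the fits without the block treat samples of one culture as separate. Depth did not limit the 10 genes, of which the lowest count was 388, and 3 libraries a group limit the precision.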
